A study of Rattus norvegicus with 10 samples.

Results

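Genes of potassium channel subunits, whose symbols start with Kcn, were compared between fetal rat hearts from control pregnancies (CON) and from hyperglycemic pregnancies (HG). Of 18025 genes listed in the deposited table, 86 had such a symbol, and the 55 whose mean over the 10 libraries reached 0.1 FPKM were tested among 14542 genes in all. FPKM is the number of reads on a gene per length of the gene and per size of the library, so that levels can be set side by side between genes. The member just inside this limit was Kcnk15 at 0.106 FPKM, and the genes just outside it were Kcna7 at 0.0955 FPKM and Kcnk13 at 0.0970 FPKM. The hearts were taken at embryonic day 19.5 from wild-type Sprague-Dawley fetuses, with 5 libraries in each group. HG dams had received daily injections of streptozotocin (STZ), a compound toxic to pancreatic beta cells, in citric acid buffer, and CON dams had received the buffer alone. The methods describe STZ injections of females only, and the fetuses were exposed through the dam, so that the diabetes of the dam and any effect of STZ itself cannot be told apart. The labels call the material heart tissue and do not say which libraries share a litter, so the p-values measure the spread between these libraries. The methods speak of pooled RNA of the 10 samples, whereas each library has a column of its own and the values differ between columns.

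Potassium channels repolarize the cardiomyocyte and hold its resting potential. Pore-forming alpha subunits assemble as tetramers or dimers, and accessory subunits bind to them and set their surface number, their gating and their kinetics. In the rodent heart, the fast transient outward current is carried by Kcnd pores with the calcium-binding protein KChIP2, the product of Kcnip2, and the inward rectifiers of the Kcnj family hold the resting potential.

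Recovered reads on genes ranged from 16672876 to 19109844 per library. Cardiomyocyte markers dominated the libraries, with Tnnt2 at a mean of 3953 FPKM in CON against 3246 FPKM in HG. The marker lists moved with the groups. Of 6 cardiomyocyte markers 5 were lower in HG, with a median log2 difference of -0.43 and summed levels of 16828 to 17849 FPKM in CON against 13620 to 15990 FPKM in HG. Of 6 atrial markers 3 were higher in HG, Nppa, Bmp10 and Nr2f2 (sums of 2796 to 4104 FPKM in CON against 3777 to 5292 FPKM in HG). Nppa had means of 1733 FPKM in CON and 2855 FPKM in HG. Myl7, Myl4 and Sln did not pass the test (log2 differences -0.06, 0.08 and -0.68). Also higher in HG were 3 of 4 smooth muscle markers (651 to 778 FPKM and 888 to 1121 FPKM) and 3 of 5 macrophage markers (18.6 to 23.3 FPKM and 23.4 to 29.0 FPKM). Red cell markers were lower for 4 of 5 genes, pericyte markers for 3 of 4, and liver markers for 3 of 4, with a liver sum of up to 69.2 FPKM in 1 CON library, CON 3. Of 4 ventricular markers 1 was higher and 2 were lower, of 5 fibroblast markers 2 were higher and 2 lower, and of 4 endothelial markers 1 was higher. Neuron markers were low, with sums of 4.41 to 5.50 FPKM in CON against 3.85 to 4.61 FPKM in HG (1 higher and 2 lower of 4 tested), and none of 2 tested glia markers and none of 5 conduction markers passed the test. In whole hearts, fewer cells of a type and less RNA per cell cannot be told apart, and the part of these markers in the differences below was not tested.

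The Kcn genes did not move in 1 direction. With limma on log2(FPKM + 0.1) and an adjusted p under 0.05 over all genes tested, 8 members were higher in HG and 9 were lower. In percent, 14.5% of the 55 members were higher, against 28.4% of all genes, and 16.4% were lower, against 11.8% of all genes. These gaps depended on the scaling: with median-of-ratios factors, 12.7% of the members and 15.6% of all genes were higher, and 18.2% and 17.5% were lower. In either direction, 30.9% of the members and 40.1% of all genes passed. The median log2 difference was 0.01 over the members and 0.09 over all genes tested, and the median absolute difference was 0.28 and 0.19. The groups did not overlap for 16 members (29.1%, against 27.4% of all genes), which were 14 of the 17 called members together with Kcnd2 and Kcnq3. Among these, Kcng1, Kcnk15 and Kcnq3 (means of 0.0939 FPKM in CON and 0.170 FPKM in HG) reached the filter only through 1 group. Nothing is therefore read from the share of 29.1%. With an absolute log2 difference above 1 in addition, 4 members remained (7.27%, against 1.94% of all genes): Kcnip2 and Kcng1 were lower, and Kcne3 and Kcnk15 were higher. Kcng1 and Kcnk15 reached the filter only through the group in which they were high, so that nothing is read from the share of 7.27%. With 1 added to each FPKM in place of 0.1, Kcnip2 was the only one past that limit. Quantile normalization gave 6 higher and 11 lower members.

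Of the 21 members whose mean reached 1 FPKM, 7 were lower (33.3%, against 12.9% of all genes at this level) and 2 were higher (9.52%, against 32.4%). These shares by level were not repeated with other scalings, on which the shares over all levels depended. Among the 34 rarer members, 8 were called, of which 6 were higher (17.6% of the 34, against 11.6% of all genes at this level). The share of lower ones was 5.88%, against 7.13%. These calls include Kcng1 and Kcnk15, which reached the filter only through the group in which they were high, so that nothing is read from these shares. The difference between the abundant and the rare members was not tested. The 7 members above 10 FPKM were, in falling order, Kcnh2, Kcnk3, Kcng2, Kcnj5, Kcnj11, Kcnip2 and Kcnj2, and they made up 65.6% of the summed level of the members. This order is that of the mean over both groups. In CON, Kcnk3 and Kcnh2 overlapped at the top, whereas in HG every library had more Kcnh2 than Kcnk3, and Kcnj5 lay above Kcnj11 in every HG library. The sum over all 86 Kcn genes was 204 to 232 FPKM in CON against 177 to 201 FPKM in HG, and the groups did not overlap. Without Kcnip2, the sum over the other 54 members was 188 to 206 FPKM in CON against 174 to 195 FPKM in HG, with overlap.

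**Figure D1:**
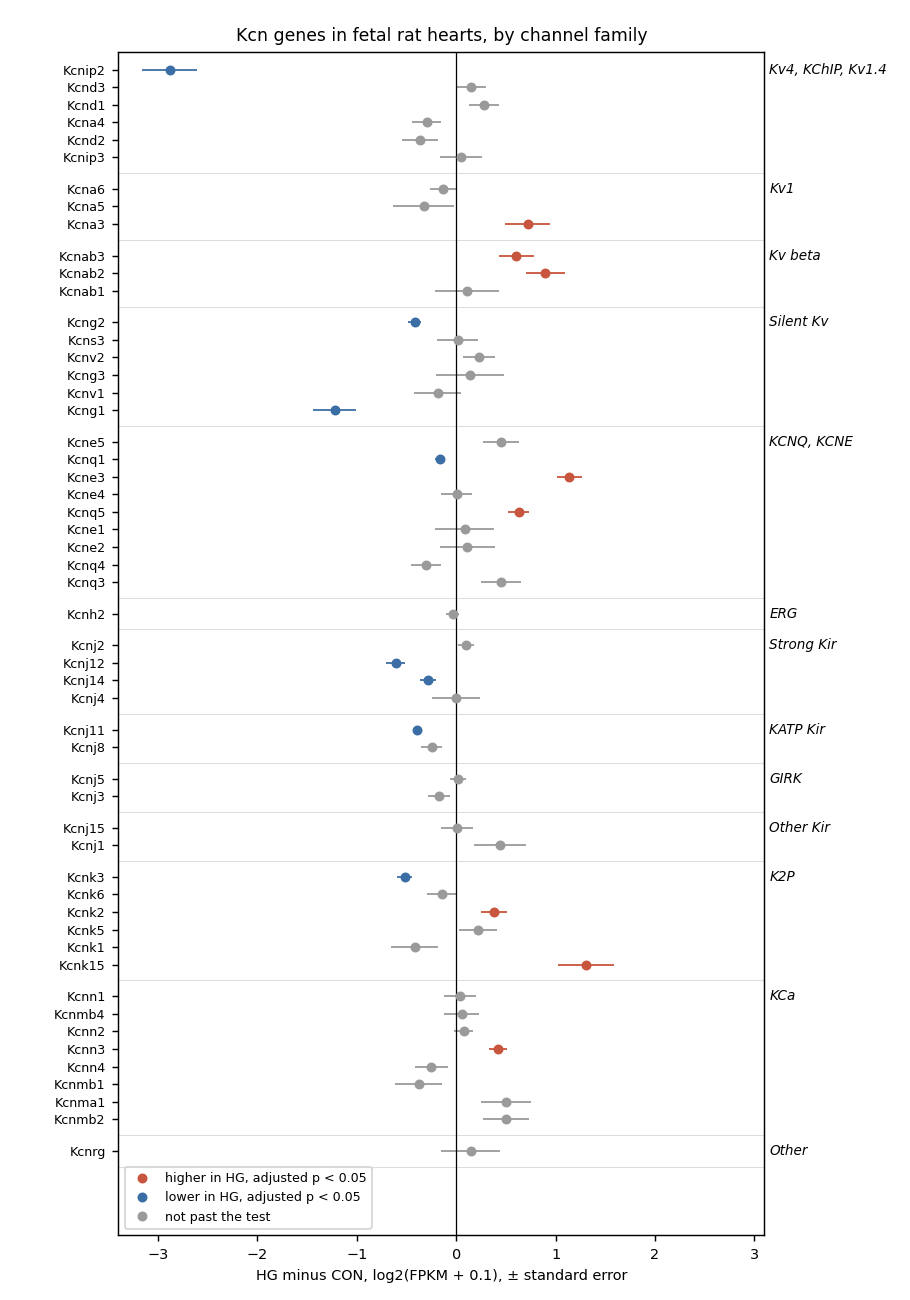
Log2 difference in FPKM (HG minus CON, with 0.1 added to each value) of 53 of the Kcn genes on the horizontal axis, with the standard error, grouped by channel family and ordered by mean level within a family. Red points are the 8 genes higher in HG and blue points 8 lower in HG at an adjusted p under 0.05, and Kcnip2 lies farthest from 0, at -2.88.

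Kcnip2 had the largest difference of the members. This gene (NCBI Gene 56817) encodes KChIP2, which brings Kcnd channels to the cell surface and slows their inactivation. For this member and for Kcne3, which had the largest rise of the members above 1 FPKM, the 250 bases upstream of the start are given from RefSeq (GRCr8 build), with GC boxes (GGGCGG) and CCAAT boxes (CCAAT) on either strand in capitals. The Kcnip2 region lies at chr1:254613899-254614148 on the minus strand, and the Kcne3 region at chr1:163935785-163936034 on the plus strand.
Kcnip2: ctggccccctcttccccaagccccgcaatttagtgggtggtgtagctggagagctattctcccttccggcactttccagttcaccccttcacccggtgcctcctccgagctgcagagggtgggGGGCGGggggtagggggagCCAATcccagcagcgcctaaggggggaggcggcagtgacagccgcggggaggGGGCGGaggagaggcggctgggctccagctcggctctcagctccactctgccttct
Kcne3: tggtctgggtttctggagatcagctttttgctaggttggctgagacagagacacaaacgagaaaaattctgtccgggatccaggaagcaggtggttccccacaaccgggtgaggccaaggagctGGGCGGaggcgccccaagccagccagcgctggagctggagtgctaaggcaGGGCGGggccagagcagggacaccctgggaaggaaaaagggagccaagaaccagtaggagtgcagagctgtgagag
The Kcnip2 region held 2 GC boxes and 1 CCAAT box, and the Kcne3 region held 2 GC boxes and 1 E-box (CANNTG), left in small letters. Among the 35 members with a sequence, 45.7% had a GC box, 14.3% a CCAAT box, 2.86% a TATA box (TATAAA) and 54.3% an E-box (CANNTG), against 30.5%, 34.0%, 12.9% and 65.5% of 33469 promoters of the same length. These motifs did not overlap one another in the sequences shown, and a match is a description of the letters only.

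The Kcnip2 level was 32, 14.6, 15.6, 16.5 and 32.7 FPKM in CON 1 to 5, and 1.80, 4.57, 2.20, 3.19 and 2.63 FPKM in HG 1 to 5. The groups were far apart, with the highest HG library under the lowest CON library, and the CON libraries themselves fell into 2 high and 3 lower ones. The mean was 22.3 ± 9.22 FPKM (SD, n = 5) in CON and 2.88 ± 1.08 FPKM (SD, n = 5) in HG, which was 7.74 times lower. The log2 difference was -2.88 (SE 0.278, limma adjusted p = 1.39e-05). Without CON 1 and CON 5, the difference was -2.46 (limma adjusted p = 9.70e-05). By level, Kcnip2 ranked 4 among the members in CON and 15 in HG, and its share of the summed level of the members was 7.05% to 14.1% in CON and 1.00% to 2.29% in HG.

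The Kcnd genes, which encode the pores that KChIP2 binds, were far lower in level than Kcnip2. Kcnd3 was at 0.733, 0.745, 1.00, 0.764 and 0.974 FPKM in CON 1 to 5 and at 0.943, 0.937, 1.01, 0.689 and 1.19 FPKM in HG 1 to 5. These ranges overlapped, and the log2 difference was 0.15 (SE 0.147, limma adjusted p = 0.444). Kcnd1 was at 0.652, 0.526, 0.649, 0.639 and 0.553 FPKM in CON 1 to 5 and at 0.773, 0.924, 0.862, 0.512 and 0.764 FPKM in HG 1 to 5. Of the HG libraries 4 lay above every CON library and HG 4 lay below them all, and the log2 difference was 0.28 (SE 0.150, limma adjusted p = 0.156). Without HG 4 it was 0.40 (limma adjusted p = 0.0253).

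Kcnd2, the other pore of the fast current, was at 0.194, 0.163, 0.153, 0.171 and 0.186 FPKM in CON 1 to 5 and at 0.139, 0.0945, 0.145, 0.0725 and 0.121 FPKM in HG 1 to 5. The groups did not overlap, and the log2 difference was -0.36 (SE 0.181, limma adjusted p = 0.132). The adjusted p was under 0.05 in 3 alternatives: it was 0.0443 with no filter, 0.0158 without the trend on expression and 0.0124 with voom on the recovered reads, where the log2 difference was -0.63. It was 0.173 with 1 added to each FPKM and 0.144 with 0.01 added. The CON libraries high in Kcnip2, CON 1 and CON 5, also had the highest Kcnd2 levels. The sum of Kcnd1, Kcnd2 and Kcnd3 was 1.43 to 1.81 FPKM in CON against 1.27 to 2.07 FPKM in HG, with overlap.

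The other KChIP genes were near the limit of detection. Kcnip3 was at 0.146, 0.128, 0.150, 0.103 and 0.132 FPKM in CON 1 to 5 and at 0.0898, 0.0764, 0.162, 0.212 and 0.187 FPKM in HG 1 to 5, a log2 difference of 0.05 (SE 0.213, limma adjusted p = 0.877). Kcnip1 and Kcnip4 were under the filter, at no more than 0.107 and 0.0780 FPKM in any library. Summed over all 4 KChIP genes, the level was 14.9 to 32.9 FPKM in CON against 2.02 to 4.69 FPKM in HG. Kcna4, the pore of the slow transient outward current, had means of 0.683 ± 0.0863 FPKM in CON against 0.540 ± 0.109 FPKM in HG (SD, n = 5; log2 difference -0.30, limma adjusted p = 0.120).

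**Figure D2:**
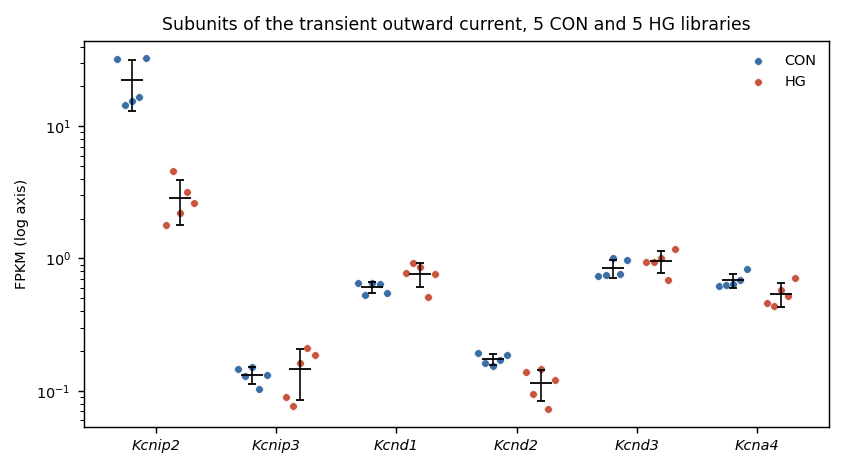
FPKM on a log axis of 6 genes of the transient outward current in the 5 CON (blue) and 5 HG (red) libraries, each point a library, with the group mean and SD in black. Kcnip2 falls from a mean of 22.3 FPKM to 2.88 FPKM, whereas the Kcnd genes lie near or under 1 FPKM in both groups.

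Ratios within a library do not depend on the scaling of the library, and 8 of them were tested by exact permutation of the library labels (two-sided), where 5 libraries against 5 allow no p under 0.00794. The Kcnip2/Kcnd3 ratio was 43.7, 19.6, 15.5, 21.6 and 33.5 in CON 1 to 5 and 1.91, 4.87, 2.18, 4.63 and 2.22 in HG 1 to 5. On average it was 8.57 times lower in HG (log2 difference -3.10, exact permutation p = 0.00794, adjusted over the 8 ratios 0.0159). The Kcnip2/Kcnd2 ratio was 89.5 to 176 in CON and 12.98 to 48.3 in HG (log2 difference -2.29, with the same p and adjusted p). Without CON 1 and CON 5, where 3 libraries against 5 allow no p under 0.0179, that difference was -1.96 (exact permutation p = 0.0357, adjusted 0.0571). The Kcnip2/Kcnd3 difference was then -2.69 (exact permutation p = 0.0179, adjusted 0.0476). In HG, the messenger RNA of Kcnip2 was thus lower relative to both pore genes, while it still exceeded each of them in every HG library. The 2 pore genes also shifted against each other: the Kcnd3/Kcnd2 ratio was 3.77 to 6.57 in CON and 6.798 to 9.92 in HG (log2 difference 0.81, exact permutation p = 0.00794, adjusted 0.0159). Without CON 1 and CON 5, it was 0.73 (exact permutation p = 0.0357, adjusted 0.0571). That shift was 0.16 (exact permutation p = 0.0556) with 1 FPKM added to both genes.

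**Figure D3:**
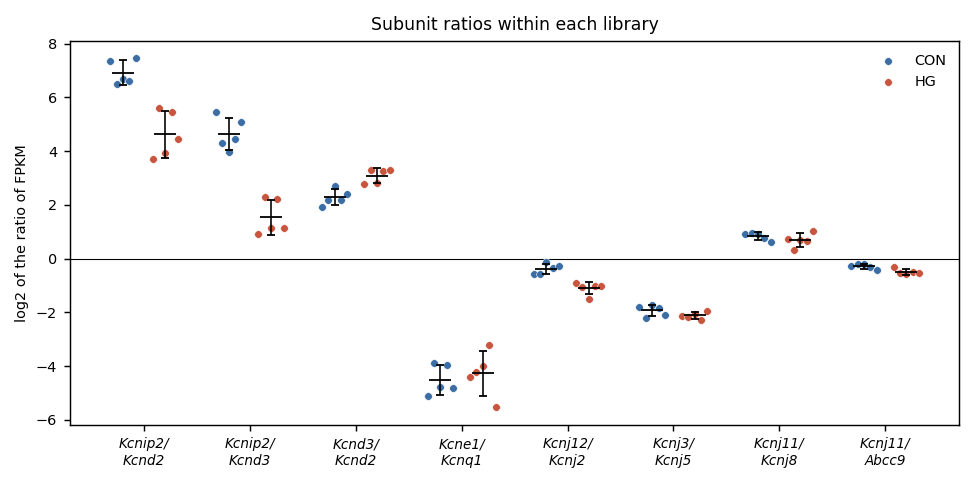
Log2 of the ratio of FPKM between pairs of subunits in each of the 5 CON (blue) and 5 HG (red) libraries, with the group mean and SD in black. The groups do not overlap for Kcnip2/Kcnd2, Kcnip2/Kcnd3, Kcnd3/Kcnd2 and Kcnj12/Kcnj2.

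Among the inward rectifiers of the resting potential, Kcnj12 and Kcnj14 were lower in HG and Kcnj2 and Kcnj4 did not pass the test. Kcnj2, the Kir2.1 pore, was at 10.6, 10.8, 9.70, 10.8 and 9.13 FPKM in CON 1 to 5 and at 9.16, 11.7, 12.1, 10.04 and 11.9 FPKM in HG 1 to 5. These ranges overlapped (log2 difference 0.10, SE 0.0830, limma adjusted p = 0.377). Kcnj12, the Kir2.2 pore, which can assemble with Kir2.1, fell from 7.86 ± 0.768 FPKM to 5.13 ± 0.652 FPKM (SD, n = 5; log2 difference -0.61, SE 0.0931, limma adjusted p = 0.000325), and its groups did not overlap. The Kcnj12/Kcnj2 ratio was 0.667 to 0.908 in CON and 0.353 to 0.528 in HG (log2 difference -0.72, exact permutation p = 0.00794, adjusted 0.0159). Kcnj14, the Kir2.4 pore, fell from 3.07 ± 0.259 FPKM to 2.49 ± 0.160 FPKM (SD, n = 5; log2 difference -0.29, limma adjusted p = 0.0128). Without CON 1 and CON 5, its adjusted p was 0.0972.

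The ATP-sensitive channel couples membrane potential to energy state, with Kir6 pores and sulfonylurea receptor subunits. Kcnj11, the Kir6.2 pore, was at 17.2, 16.9, 18.3, 18.6 and 17.3 FPKM in CON 1 to 5 and at 13.5, 13.2, 13.1, 13.5 and 13.9 FPKM in HG 1 to 5. The groups were tight and apart, and the log2 difference was -0.39 (SE 0.0416, limma adjusted p = 2.63e-05). Kcnj8, the Kir6.1 pore of vascular cells, was at 9.92 ± 1.12 FPKM in CON against 8.39 ± 1.34 FPKM in HG (SD, n = 5; log2 difference -0.25, limma adjusted p = 0.0844). The receptor genes Abcc8 and Abcc9 fell by 0.27 and 0.18 on the log2 scale (limma adjusted p = 0.0274 and 0.0410), from 14.1 to 11.7 FPKM and from 21.5 to 19.0 FPKM. Leaving out single libraries took the adjusted p of either receptor gene past 0.05: CON 4, CON 5, HG 2 or HG 4 for Abcc8 (-0.23 to -0.24), and every library except CON 2 and HG 5 for Abcc9. The Kcnj11/Abcc9 ratio differed (log2 difference -0.22, exact permutation p = 0.0159, adjusted 0.0254), but its adjusted p was 0.0508 to 0.0635 without any 1 library other than CON 5 or HG 1, and the Kcnj11/Kcnj8 ratio did not pass (-0.15, exact permutation p = 0.317, adjusted 0.363).

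The acetylcholine-gated channel of atrial and nodal cells is built from the products of Kcnj3 and Kcnj5. Kcnj5 was at 14.98, 17.7, 19.6, 15.8 and 17.2 FPKM in CON 1 to 5 and at 15.6, 18.8, 15.5, 18.7 and 17.5 FPKM in HG 1 to 5, with overlapping ranges and a log2 difference of 0.01 (SE 0.0795, limma adjusted p = 0.906). Kcnj3 was at 4.54 ± 0.832 FPKM in CON against 3.97 ± 0.403 FPKM in HG (SD, n = 5; limma adjusted p = 0.236). The Kcnj3/Kcnj5 ratio had a log2 difference of -0.19 (exact permutation p = 0.111, adjusted 0.148), and without CON 2 it was -0.26 (exact permutation p = 0.0476, adjusted 0.0635). Of the remaining Kcnj genes, Kcnj15 was the highest, at 0.188, 0.300, 0.243, 0.301 and 0.318 FPKM in CON 1 to 5 and at 0.248, 0.282, 0.298, 0.235 and 0.284 FPKM in HG 1 to 5 (log2 difference 0.01, limma adjusted p = 0.975).

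Kcnh2, the pore of the rapid delayed rectifier, had the highest mean over the 10 libraries, behind Kcnk3 in CON, and was the only 1 of 7 Kcnh genes past the filter. It was at 31.1, 24.6, 26.0, 31.2 and 29.9 FPKM in CON 1 to 5 and at 29.6, 28.0, 26.3, 27.0 and 27.8 FPKM in HG 1 to 5. All HG libraries lay within the CON range (log2 difference -0.04, SE 0.0678, limma adjusted p = 0.704). Kcnq1, the pore of the slow delayed rectifier, fell from 6.64 ± 0.215 FPKM to 5.91 ± 0.239 FPKM (SD, n = 5; log2 difference -0.17, limma adjusted p = 0.0207). This small difference did not pass without CON 1 (adjusted p = 0.0533), without HG 3 (0.0512), without both CON 1 and CON 5 (0.109) or with the replicate number as a block (0.0662).

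Single-pass Kcne subunits bind Kcnq1 and other pores and change their gating. Kcne3 was at 1.81, 2.74, 2.25, 1.85 and 2.78 FPKM in CON 1 to 5 and at 5.56, 4.98, 5.57, 4.40 and 4.92 FPKM in HG 1 to 5. Every HG library lay above every CON library, and the level rose by a log2 difference of 1.14 (SE 0.127, limma adjusted p = 3.87e-05), a ratio of means of 2.22. Kcne5, the most abundant gene of its group, was at 7.71, 4.72, 4.88, 7.49 and 7.06 FPKM in CON 1 to 5 and at 10.1, 10.9, 8.61, 8.09 and 5.94 FPKM in HG 1 to 5. Only HG 5 lay within the CON range (log2 difference 0.45, SE 0.178, limma adjusted p = 0.0614), and without it the difference was 0.58 (limma adjusted p = 0.0149). Kcne1, the classical partner of Kcnq1, was at 0.306 ± 0.113 FPKM in CON against 0.349 ± 0.191 FPKM in HG (SD, n = 5; limma adjusted p = 0.846). The Kcne1/Kcnq1 ratio was 0.0288 to 0.0669 in CON and 0.0217 to 0.107 in HG (exact permutation p = 0.603, adjusted 0.603). Kcnq5, a pore of the M-type current, was chosen after its values were seen, and it rose from 0.679 ± 0.0773 FPKM to 1.10 ± 0.0505 FPKM (SD, n = 5; log2 difference 0.63, limma adjusted p = 0.000716).

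Silent subunits form no channel alone and assemble with other voltage-gated pores. Kcng2 was at 27.3, 24.0, 29.6, 27.7 and 26.5 FPKM in CON 1 to 5 and at 19.7, 23.1, 19.3, 20.3 and 18.6 FPKM in HG 1 to 5. The groups did not overlap, and the log2 difference was -0.42 (SE 0.0654, limma adjusted p = 0.000387). Kcng1 was at 0.164, 0.222, 0.146, 0.238 and 0.275 FPKM in CON 1 to 5 and at 0.0212, 0.00735, 0.0156, 0.0612 and 0.0567 FPKM in HG 1 to 5. It rested on few reads, 139 over the CON libraries and 21 over the HG libraries, and fell by a log2 difference of -1.22 (limma adjusted p = 0.000922), which was -2.85 with voom on the reads. It passed the filter only through its CON level, so that the filter and the difference are not independent, and it was not tested when CON 1 and CON 5 were left out. Without a filter its limma adjusted p was 0.000242. Amigo1, which encodes an accessory protein of voltage-gated channels, fell from 6.38 ± 0.349 FPKM to 4.19 ± 0.480 FPKM (SD, n = 5; log2 difference -0.60, limma adjusted p = 0.000153).

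Of the Kcna pores, Kcna3 was higher and Kcna4, Kcna5 and Kcna6 did not pass. Kcna5 was at 0.257 FPKM in CON 4 and at 0.822 to 1.32 FPKM in the other CON libraries, all above the HG range of 0.404 to 0.702 FPKM. Its log2 difference was -0.33 (limma adjusted p = 0.424), and -0.65 without CON 4 (limma adjusted p = 0.0138). Kcna6, the highest of these genes, was at 0.915, 0.810, 0.855, 0.960 and 1.03 FPKM in CON 1 to 5 and at 0.726, 1.10, 0.818, 0.719 and 0.779 FPKM in HG 1 to 5. HG 2 stood above the other HG libraries, and the log2 difference was -0.14 (limma adjusted p = 0.434). Kcna3, known from lymphocytes and macrophages and chosen after its values were seen, was at 0.494 ± 0.173 FPKM in CON against 0.866 ± 0.236 FPKM in HG (SD, n = 5; log2 difference 0.72, limma adjusted p = 0.0229). Its groups overlapped, its adjusted p was 0.0527 without CON 1, 0.0522 without HG 3 and 0.0567 without HG 5, and the 5 macrophage markers, of which Cd68, Adgre1 and C1qa were higher, had a median log2 difference of 0.25 in the same libraries. The part of macrophage RNA in the Kcna3 level was not tested.

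Kv beta subunits are cytosolic partners of the Kcna pores, and 2 of 3 were higher in HG. Kcnab3 was at 0.517, 0.468, 0.354, 0.709 and 0.670 FPKM in CON 1 to 5 and at 1.01, 0.724, 0.995, 0.919 and 0.686 FPKM in HG 1 to 5. Only the lowest HG library lay within the CON range (log2 difference 0.60, SE 0.179, limma adjusted p = 0.0177), and the adjusted p was 0.0507 with quantile normalization. Kcnab2, chosen after its values were seen, rose from 0.299 ± 0.0982 FPKM to 0.633 ± 0.125 FPKM (SD, n = 5; log2 difference 0.90, limma adjusted p = 0.00335). Its log2 difference was 1.10 with 0.01 added to each FPKM, 1.10 with voom on the recovered reads and 0.33 with 1 added. Summed over the 3 genes, the level was 0.785 to 1.13 FPKM in CON against 1.61 to 1.71 FPKM in HG.

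Two-pore-domain (K2P) channels carry background current. Kcnk3, the acid-sensitive TASK-1 pore, was at 27.5, 28.1, 33.0, 28.3 and 29.1 FPKM in CON 1 to 5 and at 19.7, 24.6, 17.6, 20.3 and 19.9 FPKM in HG 1 to 5. The groups did not overlap, and the log2 difference was -0.52 (SE 0.0789, limma adjusted p = 0.000317). Kcnk15, a relative of Kcnk3 that forms no current alone, was at 0, 0.0230, 0, 0 and 0.0474 FPKM in CON 1 to 5 and at 0.439, 0.160, 0.121, 0.142 and 0.126 FPKM in HG 1 to 5. The CON libraries held 3 reads in all and the HG libraries 43, a ratio of 14.4 with a 95% exact interval of 4.62 to 72.8 that covers counting error only. The limma adjusted p was 0.00300 for a log2 difference of 1.31, and that difference was 0.23 with 1 added to each FPKM and 3.35 with 0.01 added. Kcnk15 passed the filter only through its HG level and fell under it without HG 1 or HG 2. Without a filter its limma adjusted p was 0.00172. Kcnk2, the stretch-sensitive TREK-1 pore, was chosen after its values were seen. It was at 0.818 ± 0.110 FPKM in CON against 1.10 ± 0.190 FPKM in HG (SD, n = 5; log2 difference 0.38, limma adjusted p = 0.0373), and 13 of 21 alternatives, among them the omission of any library other than CON 2 or HG 4, took it past the threshold (adjusted p up to 0.162).

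**Figure D4:**
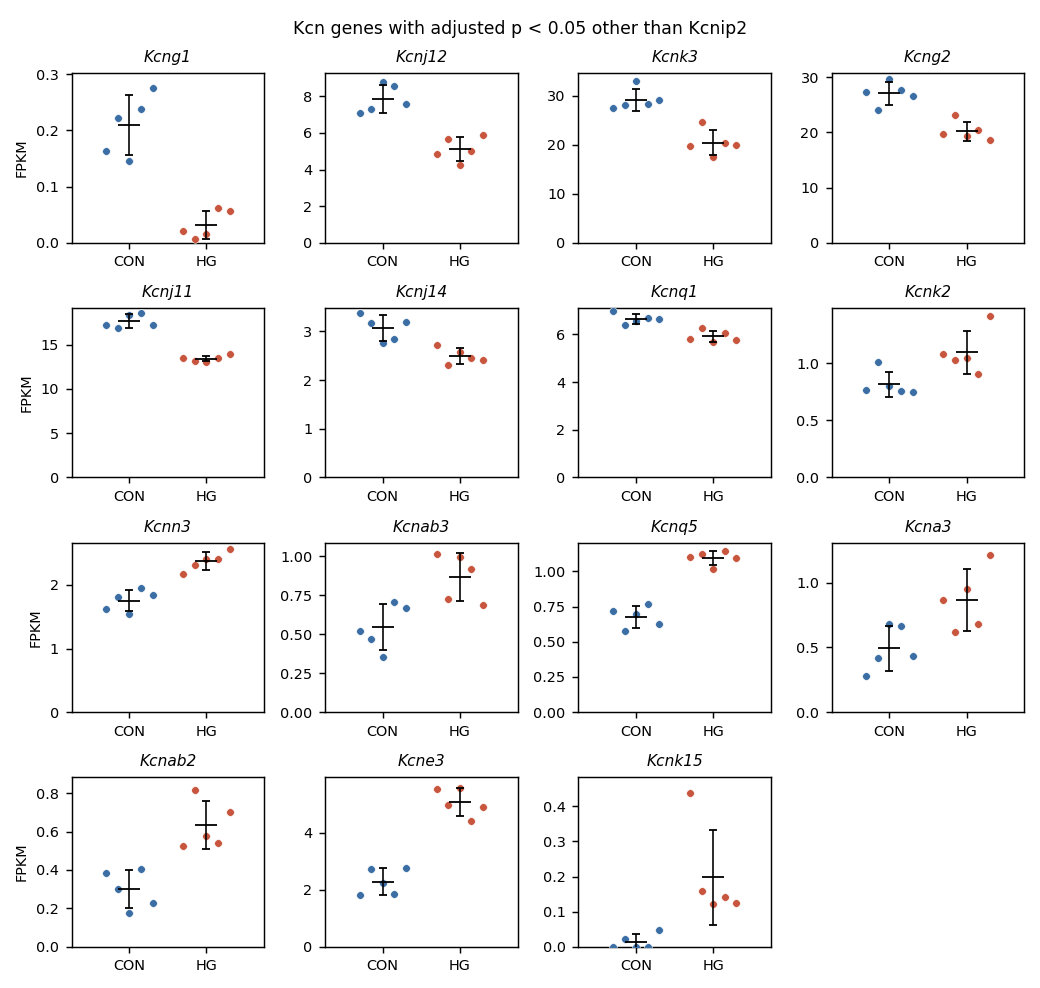
FPKM on linear axes from 0 of 15 other members with an adjusted p under 0.05 in the 5 CON (blue) and 5 HG (red) libraries, with the group mean and SD in black, ordered from the largest fall to the largest rise. The groups lie apart for Kcnj11 and Kcne3, and overlap for Kcna3, Kcnab3 and Kcnk2.

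Calcium-activated channels couple calcium to repolarization, and 1 of 8 tested members was higher. Kcnn3, the SK3 pore, rose from 1.75 ± 0.171 FPKM to 2.37 ± 0.142 FPKM (SD, n = 5; log2 difference 0.42, SE 0.0875, limma adjusted p = 0.00252), and its groups did not overlap. Kcnn1, the SK1 pore and the highest of these genes, was at 3.06, 3.47, 2.20, 4.36 and 2.60 FPKM in CON 1 to 5 and at 3.33, 2.65, 3.79, 2.83 and 3.16 FPKM in HG 1 to 5. All HG libraries lay within the CON range (log2 difference 0.03, limma adjusted p = 0.887). Kcnn2, the SK2 pore, was at 2.32 ± 0.305 and 2.44 ± 0.181 FPKM (SD, n = 5; limma adjusted p = 0.580). Kcnrg, which encodes a soluble protein related to the assembly domain of Kv channels and no pore, was at 0.547, 1.09, 0.492, 1.29 and 0.630 FPKM in CON 1 to 5 and at 0.519, 1.28, 1.36, 0.702 and 0.669 FPKM in HG 1 to 5. Its libraries varied within both groups (limma adjusted p = 0.727).

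Partner genes whose symbols do not start with Kcn were taken from a list of 18 subunits, anchors and regulators. Of these, 14 were tested, and 2 were higher and 4 were lower, where 28.4% of all genes tested were higher and 11.8% lower. Besides Abcc8, Abcc9 and Amigo1, the lower gene was Akap5, which anchors protein kinase A (1.95 ± 0.220 and 1.32 ± 0.247 FPKM, log2 difference -0.55, limma adjusted p = 0.00515). Dlg4, a scaffold that binds Kcna and Kcnj channels, rose from 4.95 ± 0.361 FPKM to 7.55 ± 0.359 FPKM (log2 difference 0.60, limma adjusted p = 2.35e-05). Irx5, a homeobox repressor of Kcnd2 in the mouse ventricle, was at 6.84, 6.37, 7.19, 8.26 and 7.23 FPKM in CON 1 to 5 and at 10.6, 13.4, 11.1, 10.3 and 10.2 FPKM in HG 1 to 5. Every HG library was above every CON library (log2 difference 0.62, SE 0.0848, limma adjusted p = 0.000153). Klf15, a known activator of Kcnip2, was added after other values were seen. It fell from 7.51 ± 0.146 FPKM to 5.05 ± 0.667 FPKM (log2 difference -0.57, limma adjusted p = 0.000183), with a CON range of 7.31 to 7.69 FPKM. A link between Irx5 or Klf15 and the Kcnip2 or Kcnd levels was not tested. All these values are means ± SD of 5 libraries.

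The other 38 tested members did not pass, with log2 differences from -0.42 to 0.50, and 20 of the 55 members had an unadjusted p under 0.05. The 31 Kcn genes under the filter had a median of 1 read per library, and 6 of them were at 0 in every CON library and 1 in every HG library. Without a filter, 4006 of all 18025 genes were higher and 1672 lower, and of the 86 Kcn genes 10 were higher and 10 lower. Kcnj9, a pore of the acetylcholine-gated family, was among these, with 2 reads over the CON libraries and 24 over the HG libraries, a ratio of 12.1 with a 95% exact interval of 3.00 to 106 that covers counting error only (limma adjusted p = 0.00359). Kcnk12 had 15 and 36 reads (limma adjusted p = 0.0352). Both were chosen after their values were seen.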

How the data were processed

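Poly(A) messenger RNA of 5 CON and 5 HG fetal hearts was sequenced from stranded libraries. The authors deposited FPKM per gene, which they computed by dividing reads by gene length and library size. The submitters' processing notes name fastp, HISAT2, HTSeq, R 3.2.0 and the build mRatBN7.2, and the strand setting of the counting is not given in the sources used here. All per-sample columns were used (0 unused).

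Groups and replicate numbers were taken from the labels. Reads were recovered from the FPKM steps (100% of genes, values within 0.01 of a whole number), 16672876 to 19109844 per library. At this depth a gene at 0.1 FPKM rests on few reads, and intervals cover counting error only. Genes whose mean reached 0.1 FPKM entered limma 3.58.1 in R 4.3.3 on the log2(FPKM + 0.1) scale (linear model without covariates, moderated with a trend), with Benjamini-Hochberg adjustment over all genes tested. The count test of the study was not used, since the deposited unit is FPKM, and voom was run on the recovered reads instead. The script was tested on simulated data. Ratios were tested by exact permutation of the library labels, two-sided, and in the paired setting by exact sign changes of the differences between same-numbered libraries. Tables and plots were made with Python 3.11.15, numpy 2.4.6, pandas 2.3.3 and matplotlib 3.10.9.

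Genes named with values were all Kcnd and Kcnip members, members past the study's fold threshold, the highest member of each of 13 role groups, called members with a mean of at least 1 FPKM and called partners. Any other called gene is said to be chosen with its values known, and the rest are uncalled relatives of these. Values of 2 members are not reported here. The members, roles, ratios and lists were chosen with earlier results of these data known. The fit was repeated with 1 or 0.01 added, without the filter or with it set to 1 FPKM, after scaling by median-of-ratios factors or quantiles, after removal of hemoglobin genes, without the trend, with array weights, with a replicate block, with voom on the recovered reads, and without each library in turn. The omission of CON 1 and CON 5 was added after the data were seen.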

Additional observations from a re-analysis of the deposited data

Results flagged for a closer look

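In 3 of 56 groups of 5 libraries, 1 library lay farther from its neighbours than Dixon's 95% limit of 0.71 of the range, and chance gives about 1 in 20 groups. Kcnk15 was at 0.439 FPKM in HG 1, above the other HG libraries. Kcna6 was at 1.10 FPKM in HG 2, above the other HG libraries. The Kcnj12/Kcnj2 ratio was 0.353 in HG 3, below the other HG libraries and on the same side of the CON libraries as they were.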

How the results depend on the processing

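Of the 17 called members, 12 kept their call in every alternative in which they were tested and 5 lost it in at least 1 (Kcnj14, Kcnab3, Kcnq1, Kcna3 and Kcnk2), and 0 changed sign. Of the 12, Kcnk15 fell under the filter without HG 1, without HG 2 and at 1 FPKM, and Kcng1 without CON 1 and CON 5 and at 1 FPKM. A filter at a mean of 1 FPKM, which tests fewer genes, left 2 higher members and 2 past the fold threshold, and adding 1 to each FPKM left 1 past it. With 0.01 added, 5 members and 407 of all genes were past it. Voom on the recovered reads gave 5 members and 426 of all genes. Without CON 1 and CON 5, 7 members were higher, 6 lower and 3 past the threshold. Leaving out single libraries gave 6 to 9 higher and 8 to 11 lower members and 4 to 6 called partners. Quantile normalization gave 6 higher and 11 lower members, and median-of-ratios factors gave 7 and 10, with the shares over all genes given above. Over all genes, the share of calls higher in HG was 70.7%, and it was 47.1% after median-of-ratios scaling and 53.0% after quantile normalization.

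The labels do not say that replicate numbers pair the samples. Same-numbered libraries correlated at -0.13 to 0.11 in their deviations from the group means, and 1 of 10 libraries correlated best with its own number. These correlations cannot decide whether equal numbers share a batch. With the number as a replicate block, 7 members were higher, 8 lower and 4 past the threshold, with 6 partners. In the same paired setting, the ratios were tested by exact sign changes of the 5 differences between same-numbered libraries. The log2 ratios of -2.29 (Kcnip2/Kcnd2), -3.10 (Kcnip2/Kcnd3), 0.81 (Kcnd3/Kcnd2), -0.72 (Kcnj12/Kcnj2) and -0.22 (Kcnj11/Abcc9) had an exact sign-change p of 0.0625, the smallest that 5 pairs allow. The Kcnd3/Kcnd2 difference was 0.16 with 1 FPKM added to both genes. The Kcnj3/Kcnj5 difference was -0.26 to -0.14 over the omissions of single libraries, with an exact permutation p of 0.0476 without CON 2 that was 0.0635 after adjustment over the 8 ratios. Where no value shows the cause of a change, the cause was not tested. Some members under 1 FPKM rest on few reads, which limits their fold changes, such as Kcnk15 with 0 to 20 reads per library. Others do not, such as Kcna4 with 152 to 277 reads per library.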
